A study of Ovis aries with 9 samples.

Results

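The genes described here are those for 10 proteins of the basement membrane: 3 laminin alpha chains (LAMA2, LAMA4 and LAMA5), 2 beta chains (LAMB1 and LAMB2), 1 gamma chain (LAMC1), the 2 nidogens (NID1 and NID2), perlecan (HSPG2) and agrin (AGRN). They were picked by gene name from an expression table of 22605 loci, with earlier results of these data known. Each name belonged to 1 locus that held a reference transcript, so 10 of 22605 loci are followed. The tissue is longissimus dorsi, the long muscle of the back, from fetuses of Chinese merino sheep at pregnancy days 85, 105 and 135, called D85, D105 and D135 below. Each day has 3 RNA libraries, no animal was treated or altered, and the fetuses of all 3 days share breed and muscle. Whether the 3 libraries of each day stand for 3 fetuses is not stated in the labels, and the p-values below therefore weigh a difference only against the scatter of these libraries, part of which may be technical.

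A basement membrane is a thin sheet of matrix that wraps every muscle fibre, capillary and nerve sheath. Its framework is laminin, a trimer of 1 alpha, 1 beta and 1 gamma chain that assembles into a network on the cell surface, and type IV collagen, a second network that the nidogens and perlecan tie to the first. In muscle, laminin with the LAMA2 chain binds dystroglycan and integrins on the fibre surface, and loss of LAMA2 causes a congenital muscular dystrophy. LAMB1 and LAMB2 take the same place in the trimer. In adult muscle of rodents LAMB2 is known for its concentration at the neuromuscular junction, where agrin released by the nerve organises the acetylcholine receptors.

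Values are FPKM as deposited, that is, sequenced fragments per unit of transcript length and of library size, and being per length they allow levels of different genes to be set side by side. Differences between days are given as log2 changes of FPKM + 1, which understate the change of low genes. They were tested with limma over the 13086 loci that reached 1 FPKM in at least 3 libraries, with Benjamini-Hochberg adjusted p-values over all of them and a threshold of 0.05. All 10 genes passed the filter. In the text, "rose" and "fell" are used only where a gene passed this test.

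A fact of the whole table bears on every comparison with D135. The median log2 change over all tested loci was -0.35 for D135 against D85 and -0.33 for D135 against D105, but -0.024 for D105 against D85. Summed FPKM of skeletal muscle fibre markers (9 of 10 matched) lay between 17672 and 21285 at D135, against 9188 to 12243 at D105 and 7388 to 9843 at D85. When the libraries were rescaled by the median of ratios over loci, 1344 loci rose and 957 fell for D135 against D105, in place of 585 and 4579, and for D135 against D85 the split was 1942 and 1673 in place of 903 and 5194. For this reason each change of the 10 genes to D135 is given as deposited and relative to the median of all loci, that of other genes as deposited with the counts of its list under that scaling, and ratios between genes within a library, which no rescaling alters, are given beside them. The median of all loci covers low loci, whose changes the added 1 understates, so values relative to it sit lower than under median-of-ratios scaling. Over the 10 genes the median change for D135 against D105 was -0.23 relative to all loci and -0.14 under that scaling. Against D85 it was -0.07 and 0.035. The second D105 library stood apart, at -51.1 on the second principal component where the other 8 libraries lay between -0.653 and 24.8. Its summed fibroblast markers were 6802 FPKM and its tendon and cartilage markers 323 FPKM, against at most 2569 and 16.3 FPKM in the other D105 libraries, and results that rest on it are given with and without it.

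The beta chains went in opposite directions. LAMB2 measured 69.0, 82.5 and 60.6 FPKM at D85, 93.9, 95.3 and 85.4 FPKM at D105, and 107, 91.9 and 91.0 FPKM at D135. LAMB1 measured 110.3, 118 and 119 FPKM at D85, 123, 75.1 and 117 FPKM at D105, and 68.6, 67.7 and 57.3 FPKM at D135. All D85 libraries were below all later libraries in LAMB2, and all D135 libraries were below all earlier ones in LAMB1, whose 75.1 FPKM is the value of the D105 library that stood apart. LAMB2 averaged 96.5 ± 8.71 FPKM at D135 and 70.7 ± 11.0 FPKM at D85 (SD, n = 3 each), a log2 change of 0.45 ± 0.13 (SE) with a limma adjusted p of 0.022, or 0.80 relative to the median of all loci. That call was lost without the first D85 library (adjusted p = 0.0590), the last D85 library (0.0651) or the first D135 library (0.0695). LAMB1 averaged 64.5 ± 6.25 FPKM at D135 and 116 ± 4.75 FPKM at D85 (SD, n = 3 each), and its log2 change was -0.84, or -0.48 relative to that median, with a limma adjusted p of 0.00751.

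For D135 against D105, LAMB1 fell by 0.67 on the log2 scale, or -0.33 relative to the median of all loci, with a limma adjusted p of 0.0233 (0.0529 to 0.0719 in the 4 fits that lost the call), and LAMB2 had a change of 0.073 (adjusted p = 0.676), or 0.41 relative to that median. Without the D105 library that stood apart the LAMB1 change was -0.89 (limma adjusted p = 0.00323), and its change for D105 against D85 was 0.054 in place of -0.17, and neither of these last values passed. Under median-of-ratios scaling LAMB2 rose in both comparisons with D135 (0.51 against D105, limma adjusted p = 0.0161, and 0.91 against D85, adjusted p = 0.000832). Under the same scaling LAMB1 kept negative changes that did not pass (-0.23 against D105, adjusted p = 0.458, and -0.37 against D85, adjusted p = 0.188).

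The ratio of LAMB2 to LAMB1 within each library, which does not depend on scaling, was 0.626, 0.697 and 0.511 at D85, 0.763, 1.27 and 0.729 at D105, and 1.55, 1.36 and 1.59 at D135. The days did not overlap, and LAMB2 was the higher of the pair in all D135 libraries, in 1 of 3 D105 libraries and in no D85 library. That D105 library, at 1.27, was the one that stood apart. Of the FPKM summed over LAMB1, LAMB2, LAMB3 and LAMB4, LAMB2 held 37.2 ± 3.58% at D85, 46.3 ± 7.20% at D105 and 59.5 ± 2.11% at D135 (SD, n = 3 each). LAMB1 held 61.2 ± 3.67%, 52.1 ± 7.85% and 39.7 ± 1.96% at the same days. In the D105 library that stood apart LAMB2 held 54.6%. Its share was 42.7% and 41.6% in the other D105 libraries, and up to 40.4% at D85. The beta chains can also be set against the gamma chain. The LAMB2 to LAMC1 ratio was 0.716 ± 0.115 at D85, 0.853 ± 0.0787 at D105 and 1.20 ± 0.108 at D135, with no overlap between days. The LAMB1 to LAMC1 ratio was 1.17 ± 0.0489, 0.970 ± 0.199 and 0.809 ± 0.145 at the same days, where D135 and D105 overlapped. That overlap came from the D105 library that stood apart, at 0.743. The other D105 libraries had 1.05 and 1.11, and D135 reached 0.976. These ratios are descriptions and carry no test.

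**Figure D1:**
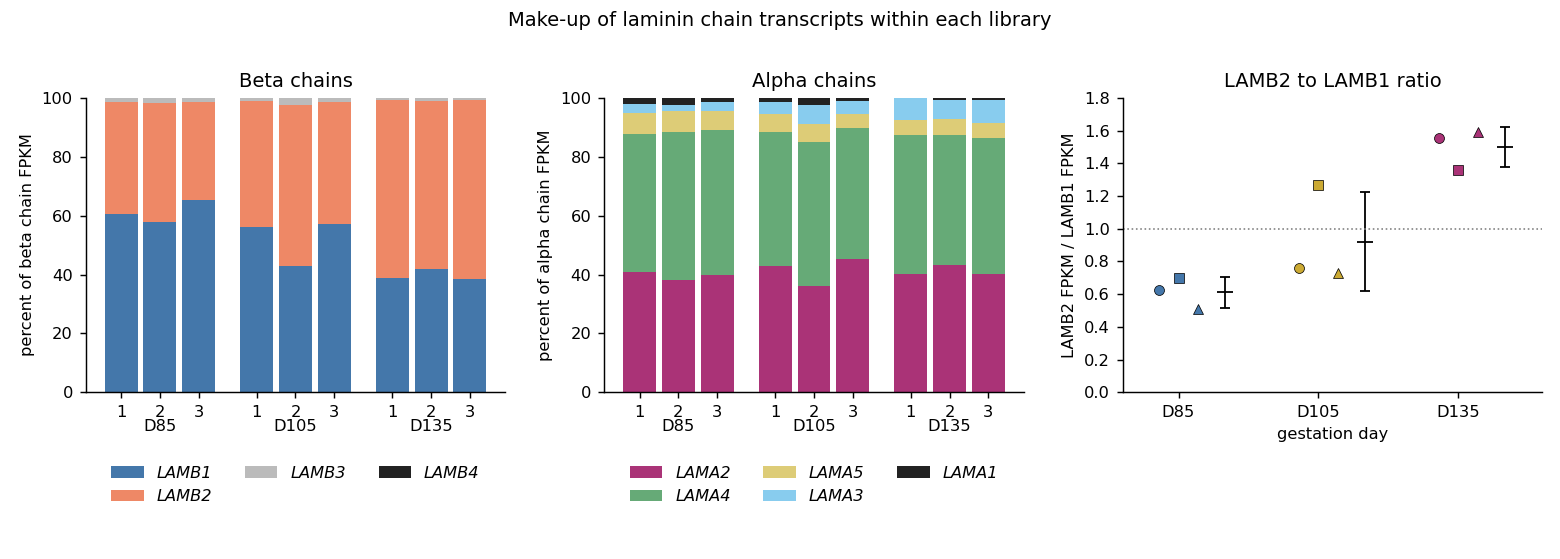
Within-library composition of the laminin chains: share of the summed alpha-chain and beta-chain FPKM held by each chain, and the LAMB2 to LAMB1 ratio, in each of the 9 libraries by day. LAMB2 held 59.5 ± 2.11% of beta-chain FPKM at D135 and 37.2 ± 3.58% at D85, while the LAMA2 shares of the 3 days overlapped.

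LAMC1, the gamma chain of nearly all laminin trimers in muscle, measured 89.8, 104 and 104 FPKM at D85, 117, 101 and 105 FPKM at D105, and 93.9, 69.3 and 79.7 FPKM at D135. Every D135 library was below every D105 library, while D135 and D85 overlapped. LAMC1 averaged 81.0 ± 12.3 FPKM at D135 and 108 ± 8.15 FPKM at D105 (SD, n = 3 each), a log2 change of -0.42 with a limma adjusted p of 0.036, or -0.081 relative to the median of all loci. Against D85 the change was -0.30 (adjusted p = 0.0955), or 0.058 relative to that median. The call against D105 was lost in 5 of the 9 fits that left out 1 library (limma adjusted p up to 0.109). Among these was the fit without the D105 library that stood apart (adjusted p = 0.0517). It was also lost under median-of-ratios scaling, where the sign turned (0.023, adjusted p = 0.926).

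As deposited the 3 alpha chains were all lower at D135 than at either earlier day. Under median-of-ratios scaling LAMA2 had a positive value against D85. LAMA2, the alpha chain of the muscle fibre, measured 36.9, 35.8 and 37.8 FPKM at D85, 43.8, 35.3 and 48.1 FPKM at D105, and 28.3, 28.3 and 27.7 FPKM at D135. LAMA4, best known from the basement membranes of blood vessels and nerve, measured 42.4, 46.9 and 46.9 FPKM at D85, 46.1, 48.0 and 47.4 FPKM at D105, and 33.3, 29.2 and 32.0 FPKM at D135. LAMA5, a chain of vessels and of the neuromuscular junction, measured 6.24, 6.67 and 6.17 FPKM at D85, 6.30, 5.89 and 5.30 FPKM at D105, and 3.65, 3.37 and 3.56 FPKM at D135. For each of the 3 genes the D135 libraries lay below all 6 earlier libraries, and D85 and D105 overlapped.

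For D135 against D105 the log2 changes were -0.57 ± 0.11 (SE) for LAMA2, -0.57 ± 0.085 for LAMA4 and -0.59 ± 0.089 for LAMA5, with limma adjusted p-values of 0.00729, 0.00269 and 0.0028. Relative to the median of all loci they were -0.23, -0.24 and -0.26, and under median-of-ratios scaling none of these falls passed. For D135 against D85, LAMA5 changed by -0.70 (limma adjusted p = 0.000755), LAMA4 by -0.52 (0.00217) and LAMA2 by -0.38 (0.0263). Relative to the median of all loci the LAMA5 change was -0.35 and the LAMA4 change -0.16. The LAMA2 change against D85 was -0.026 relative to the median of all loci, and it was 0.075 under median-of-ratios scaling, so that its direction rests on the scaling, and it did not pass whichever D85 or D135 library was left out (adjusted p from 0.0525 to 0.0690). LAMA5 was the alpha chain that still fell against D85 under median-of-ratios scaling, by 0.32 on the log2 scale with a limma adjusted p of 0.0221.

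Of the FPKM summed over the 5 alpha chains, LAMA2 held 39.6 ± 1.34% at D85, 41.4 ± 4.76% at D105 and 41.1 ± 1.78% at D135 (SD, n = 3 each), with overlapping libraries. LAMA4 held 48.7 ± 1.61%, 46.3 ± 2.38% and 45.9 ± 1.39%, which overlapped as well. LAMA3, a chain best known from epithelia and named here after its values were seen, held 2.88 ± 0.592%, 5.03 ± 1.45% and 7.34 ± 0.576%, with no overlap between days. Its level was 5.03 ± 0.547 FPKM at D135 and 2.68 ± 0.560 FPKM at D85, a log2 rise of 0.72 with a limma adjusted p of 0.0127. Markers of epidermis, where LAMA3 would also be made (3 of 4 matched), summed to 0.864 to 1.45 FPKM at D135, 1.01 to 1.58 FPKM at D105 and 1.49 to 2.42 FPKM at D85. Of these markers KRT5 and EPCAM averaged under 1 FPKM. Which cells made the LAMA3 transcripts was not tested.

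The nidogens, which link laminin to type IV collagen, differed from each other at D135. NID2 measured 47.7, 44.9 and 51.7 FPKM at D85, 59.0, 60.5 and 53.1 FPKM at D105, and 34.7, 34.7 and 34.4 FPKM at D135. NID1 measured 73.0, 79.6 and 66.6 FPKM at D85, 89.5, 74.2 and 83.0 FPKM at D105, and 68.4, 64.1 and 67.7 FPKM at D135. NID2 was highest at D105 with all 3 days apart, while the NID1 libraries of D135 lay within the range of D85 apart from 1 below it.

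NID2 fell by 0.72 on the log2 scale for D135 against D105 (limma adjusted p = 0.0015) and by 0.46 for D135 against D85 (adjusted p = 0.00415), or -0.38 and -0.11 relative to the median of all loci. Neither fall passed under median-of-ratios scaling (-0.28, adjusted p = 0.095, and -0.0042, adjusted p = 0.981). NID1 had changes of -0.29 (adjusted p = 0.0533) and -0.13 (adjusted p = 0.349), or 0.039 and 0.23 relative to that median. Without the D105 library that stood apart the NID1 change against D105 passed with a limma adjusted p of 0.0364. Under median-of-ratios scaling the NID1 signs turned, to 0.14 against D105 (adjusted p = 0.356) and 0.34 against D85 (adjusted p = 0.0335). The ratio of NID2 to NID1 was 0.519 ± 0.0195 at D135, against 0.705 ± 0.0966 at D105 and 0.665 ± 0.107 at D85 (SD, n = 3 each), with all D135 libraries below all others.

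Agrin and perlecan are heparan sulfate proteoglycans of the basement membrane that both bind dystroglycan. AGRN measured 10.1, 11.3 and 9.19 FPKM at D85, 13.0, 12.7 and 10.8 FPKM at D105, and 7.78, 5.97 and 5.72 FPKM at D135. HSPG2 measured 28.8, 36.1 and 23.0 FPKM at D85, 39.8, 43.5 and 33.1 FPKM at D105, and 27.8, 27.7 and 36.1 FPKM at D135. The AGRN libraries of D135 lay below all the others, whereas the HSPG2 libraries overlapped between every pair of days. AGRN had the largest fall of the 10 genes for D135 against D105, -0.82 ± 0.13 (SE) with a limma adjusted p of 0.00382, or -0.48 relative to the median of all loci.

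AGRN was also the gene whose fall against D105 passed under median-of-ratios scaling (-0.42, limma adjusted p = 0.0413). Against D85 it fell by 0.59 on the log2 scale (adjusted p = 0.00885), or -0.23 relative to the median of all loci, and did not pass under that scaling (-0.17, adjusted p = 0.313). HSPG2 passed in no comparison, with changes of 0.41 for D105 against D85 (adjusted p = 0.429), -0.34 for D135 against D105 (adjusted p = 0.18) and 0.070 for D135 against D85 (adjusted p = 0.781). Relative to the median of all loci the changes to D135 were -0.0058 against D105 and 0.42 against D85. The AGRN to HSPG2 ratio was 0.218 ± 0.0608 at D135, against 0.314 ± 0.0197 at D105 and 0.355 ± 0.0434 at D85. These FPKM cover all transcripts of a locus, so the form of agrin made by nerve and the form made by muscle cannot be told apart in them.

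**Figure D2:**
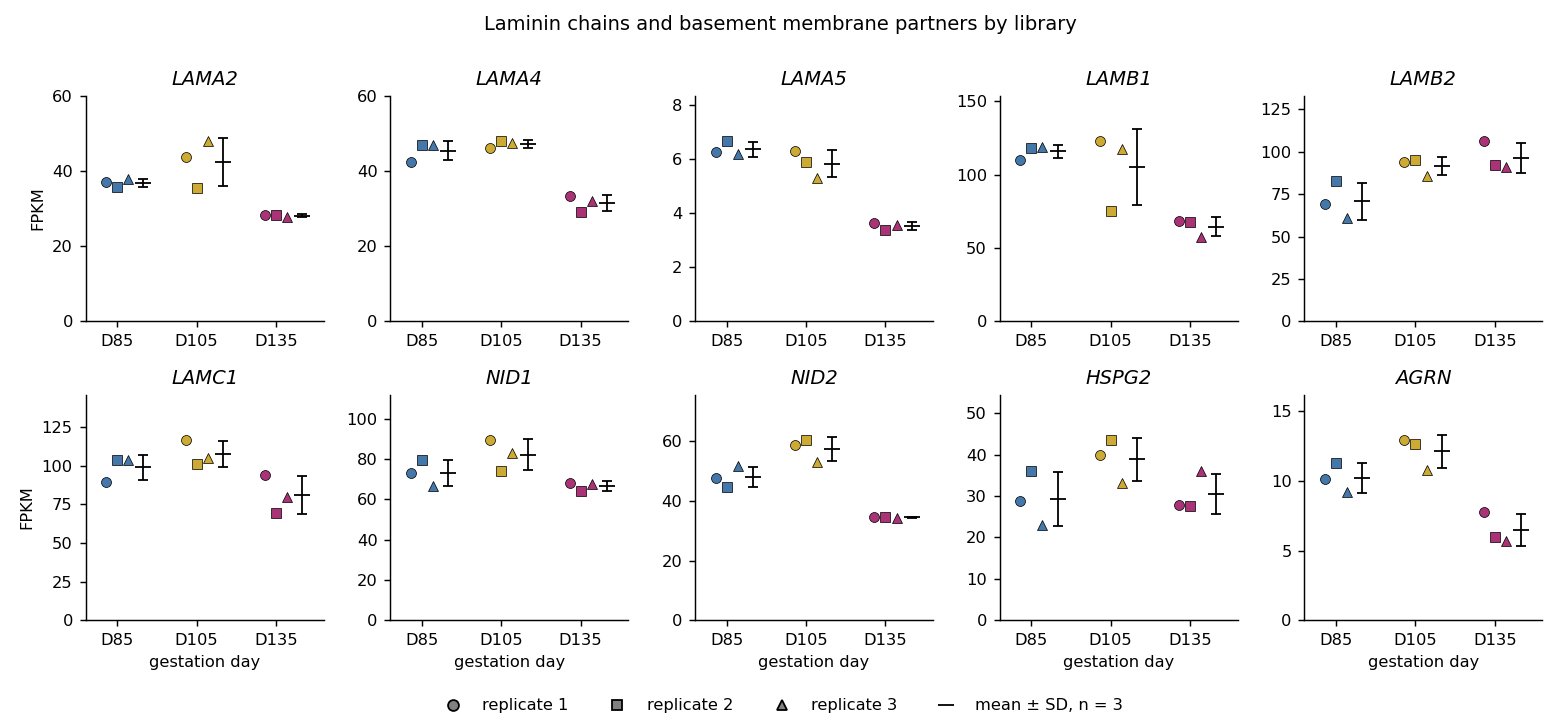
FPKM of the 10 basement membrane genes in each of the 9 libraries by day, with points for libraries and the mean and SD of each day, each gene on its own axis. LAMB2 was higher at D135 (96.5 ± 8.71 FPKM) than at D85 (70.7 ± 11.0 FPKM), and LAMA2, LAMA4, LAMA5, LAMB1, NID2 and AGRN had all D135 libraries below the rest.

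Counted over the 10 genes, D135 against D105 had 0 that rose, 7 that fell and 3 that did not pass, namely LAMB2, NID1 and HSPG2. Over all tested loci 39.5% were called in that comparison, with 4.47% higher and 35.0% lower. The groups did not overlap in 8 of the 10 genes, all lower at D135, where 54.1% of all loci did not overlap, 6.43% higher and 47.7% lower. D135 against D85 had 1 gene that rose, LAMB2, and 6 that fell, LAMA2, LAMA4, LAMA5, LAMB1, NID2 and AGRN, where 46.6% of all loci were called, 6.90% higher and 39.7% lower. These 7 genes were also the ones whose groups did not overlap, in a comparison where 58.2% of all loci did not, 9.42% higher and 48.8% lower. As deposited, the share that fell was thus above the background in both comparisons, but over 10 genes chosen by name this carries no test. Under median-of-ratios scaling 1 of the 10 fell in each comparison, beside 7.31% of all loci against D105 and 12.8% against D85. The median change of the 10 genes was -0.57 for D135 against D105, or -0.23 relative to all loci, and -0.42 for D135 against D85, or -0.07 relative to all loci.

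Under median-of-ratios scaling 1 of the 10 genes rose and 1 fell for D135 against D105, where 17.6% of all loci were called, 10.3% higher and 7.31% lower. For D135 against D85, 2 rose (LAMB2 and NID1) and 1 fell (LAMA5), where 27.6% were called, 14.8% higher and 12.8% lower. LAMA2, LAMA4, LAMB1, LAMC1 and NID2, which fell as deposited, passed in neither comparison under this scaling. FPKM is a share of a library, so less of a transcript and more of the others cannot be told apart in it, nor, in a whole muscle, can fewer cells of a type and less RNA per cell.

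D105 and D85 differed little. None of the 10 genes passed, where 0.199% of all tested loci did (26 loci in limma, 0.145% higher and 0.0535% lower, against 1611 at an unadjusted p under 0.05). LAMB2 and NID2 did not overlap and were higher at D105, in a comparison where 18.4% of all loci did not overlap, 8.00% higher and 10.4% lower. Their log2 changes were 0.38 ± 0.13 (SE, adjusted p = 0.297) and 0.25 (adjusted p = 0.307). The median over the 10 genes was 0.18, against -0.024 over all loci, and LAMB1 and LAMA5 had negative values. Over the 3 days together, the limma F test called 7 of the 10 genes (43.2% of all loci), leaving out LAMC1 (adjusted p = 0.0676), NID1 (0.109) and HSPG2 (0.192).

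**Figure D3:**
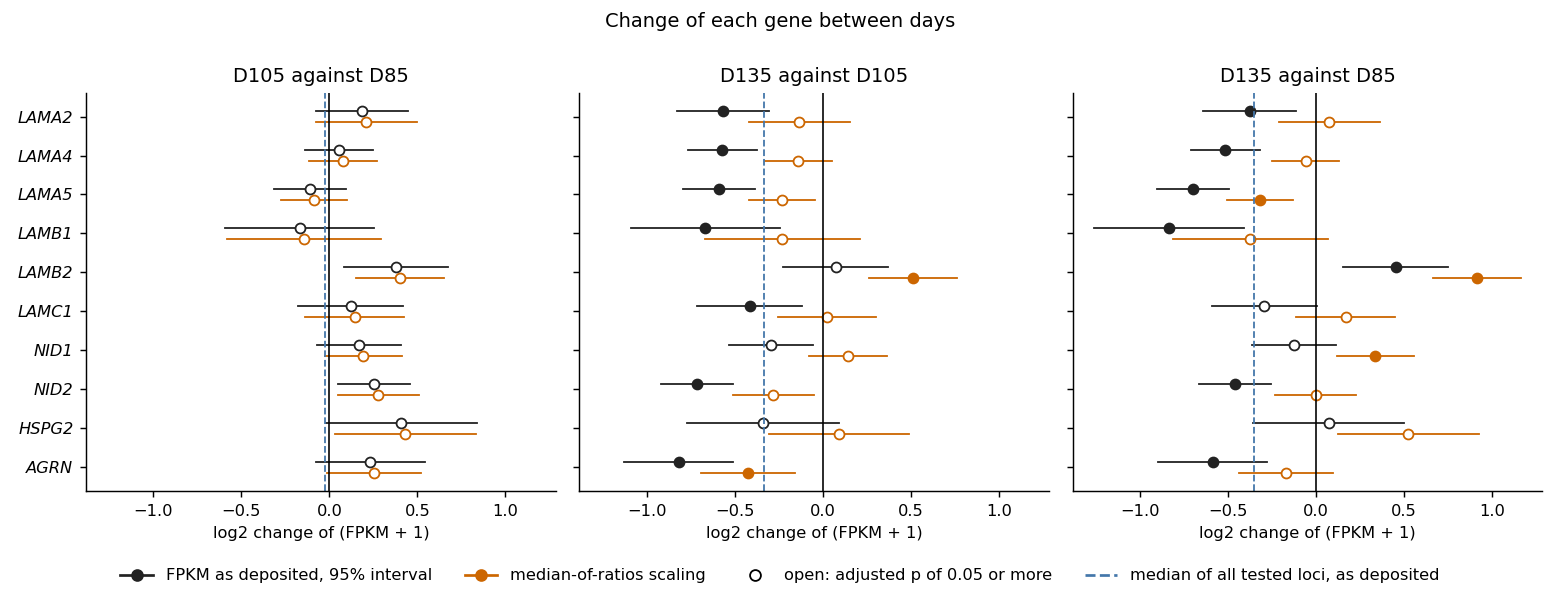
Log2 changes of FPKM + 1 of the 10 genes in the 3 comparisons with 95% intervals, as deposited and after median-of-ratios scaling. The changes to D135 sit higher after scaling, with LAMB2 at 0.91 against D85 and LAMA2 at 0.075, while the D105 against D85 values hardly move.

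The order of the levels changed around the beta chains. At D85 LAMB1 (116 ± 4.75 FPKM) was above LAMC1 (99.0 ± 7.99 FPKM), and both were above NID1 and LAMB2, whose libraries overlapped. NID2 and LAMA4 overlapped next, then LAMA2 and HSPG2, and AGRN and LAMA5 were lowest and apart. At D105 the highest 4, LAMC1, LAMB1, LAMB2 and NID1, overlapped each with its neighbour, and NID2 was apart below them. At D135 LAMB2 (96.5 ± 8.71 FPKM) overlapped LAMC1 (81.0 ± 12.3 FPKM), and both were above NID1 and LAMB1. NID2, LAMA4 and LAMA2 followed apart from each other, and HSPG2, at 27.7 to 36.1 FPKM, overlapped all 3 of them. AGRN (6.49 ± 1.12 FPKM) and LAMA5 (3.53 ± 0.142 FPKM) were again the lowest and apart. Ranked by mean over the 9 libraries among 13086 loci, LAMC1 was at place 260, LAMB1 at 261 and LAMB2 at 286, whereas AGRN was at 3187 and LAMA5 at 5873.

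Likeness of pattern was measured as the root mean square difference of log2(FPKM + 1) over the 9 libraries, each gene centred on its own mean. Within the 10 genes, LAMA4 and LAMA5 were closest at 0.11, then LAMA4 and NID2 at 0.12, and LAMB1 and LAMB2 were the farthest apart at 0.58. Among the other tested loci, those nearest to LAMB2 were THAP4, SHROOM4 and PTGS1 (0.085 to 0.103), and those nearest to LAMB1 were TUBGCP6, PDCD6 and RPS6KA6 (0.086 to 0.104). LAMC1 was nearest to ATP10D, ATP13A2 and GPS2 (0.075 to 0.078). For the alpha chains the nearest were RPS6KA1, HSPA4L and CD247 to LAMA2 (0.073 to 0.079), CWC22, RBM6 and U2SURP to LAMA4 (0.038 to 0.043), and CEP192 and CSTF2 to LAMA5 (0.045 to 0.046). For the linkers they were KCTD6, FIGNL2 and FURIN to NID1 (0.060 to 0.067), and FES, RASSF2 and ADCK4 to NID2 (0.075 to 0.095). FCHSD2, MYH9 and EGFR were nearest to HSPG2 (0.116 to 0.123), and SMIM29, TSPAN6 and TMCO4 to AGRN (0.078 to 0.094). These are descriptions over 9 libraries that share the shift at D135.

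Of 31 other basement membrane components, 26 were tested. COL15A1, a collagen that anchors the basement membrane to the matrix around it, was the component that rose for D105 against D85, by 1.13 on the log2 scale (limma adjusted p = 0.0155). COL15A1 averaged 129 ± 13.3 FPKM at D135, against 169 ± 5.36 FPKM at D105 and 77.3 ± 8.85 FPKM at D85 (SD, n = 3 each). In the list, 0 of 26 rose and 11 fell at D135 against D105, beside 4.47% and 35.0% of all loci, and 5 rose and 9 fell against D85, beside 6.90% and 39.7%. Under median-of-ratios scaling these counts were 2 and 3, and 8 and 4. The median change of the list was -0.38 against D105 and -0.27 against D85, close to the -0.33 and -0.35 of all loci.

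COL18A1, the precursor of endostatin, fell to 2.98 ± 0.324 FPKM at D135, against 11.3 ± 2.22 FPKM at D105 and 14.8 ± 1.46 FPKM at D85, with log2 changes of -1.62 (limma adjusted p = 0.000708) and -1.99 (adjusted p = 0.000141). NPNT, a ligand of integrins, fell by 1.46 on the log2 scale for D135 against D105 (limma adjusted p = 0.00126). Both falls passed under median-of-ratios scaling too, at -1.26 (adjusted p = 0.00134) for COL18A1 and -1.11 (adjusted p = 0.00503) for NPNT. LAMA1, an alpha chain of early embryos, fell for D135 against D85 to 0.356 ± 0.228 FPKM, against 1.82 ± 0.537 FPKM. VWA1, a perlecan-binding protein, fell by 1.29 on the log2 scale for D135 against D105 (adjusted p = 0.0337), which was lost without the D105 library that stood apart (adjusted p = 0.0663) and under median-of-ratios scaling (adjusted p = 0.169).

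FBLN2 and TINAGL1, matrix proteins that bind other basement membrane components, rose for D135 against D85 by 0.78 (limma adjusted p = 0.025) and 0.72 (adjusted p = 0.0381) on the log2 scale. SPARC, a collagen-binding protein, had the highest mean of the list and passed in no comparison. The type IV collagen chains COL4A1 and COL4A2, named here because they form the second network, did not pass either. COL4A1 averaged 67.3 ± 9.88 FPKM at D135, 84.4 ± 8.94 FPKM at D105 and 72.0 ± 12.6 FPKM at D85, and its changes to D135 were -0.33 against D105 (adjusted p = 0.133) and -0.092 against D85 (adjusted p = 0.66).

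The receptors of laminin and agrin mostly fell at D135 as deposited, but not under median-of-ratios scaling. Of 16 tested, 1 rose and 9 fell against D105, and likewise against D85, with medians of -0.52 and -0.64. Of all loci 4.47% rose and 35.0% fell against D105, and 6.90% and 39.7% against D85. Without the D105 library that stood apart, 2 rose and 6 fell against D105. Under median-of-ratios scaling the counts were 2 and 0 against D105 and 2 and 2 against D85. ITGB1, the beta chain of most laminin-binding integrins, fell to 46.0 ± 5.89 FPKM at D135, against 64.8 ± 3.44 FPKM at D85 (log2 change -0.49, limma adjusted p = 0.0091), with no change under median-of-ratios scaling that passed (-0.031, adjusted p = 0.885). ITGA7, its partner in the laminin receptor of muscle fibres, was chosen after its values were seen and fell by 0.59 on the log2 scale against D85 (adjusted p = 0.0145; -0.14, adjusted p = 0.563, after that scaling).

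LRP4, the receptor that agrin binds at the neuromuscular junction, fell to 6.07 ± 0.215 FPKM at D135, against 12.2 ± 2.92 FPKM at D105 and 16.1 ± 1.40 FPKM at D85. Its log2 changes were -0.88 (limma adjusted p = 0.00543) and -1.27 (adjusted p = 0.00076), of which the second passed after median-of-ratios scaling (-0.85, adjusted p = 0.00663). SDC2, a cell-surface heparan sulfate proteoglycan, fell by 1.55 on the log2 scale for D135 against D85 (adjusted p = 0.000918), and SDC3 and ITGA2 fell by 0.99 and 0.96, of which SDC2 alone passed after that scaling (-1.14, adjusted p = 0.0053). ITGB4 rose by 1.10 for D135 against D85 (adjusted p = 0.00179), to 2.06 ± 0.511 FPKM against 0.418 ± 0.140 FPKM, and SDC4 rose by 1.15 for D135 against D105 (adjusted p = 0.0245). RPSA, a ribosomal protein also known as the laminin receptor precursor, was the highest of the list and passed in no comparison. DAG1, the dystroglycan gene, had 2 loci of that name, of which only 1 was followed, so its values may not hold the whole gene. That locus measured 1.62, 8.70 and 14.9 FPKM at D135 and 4.96 to 19.5 FPKM at D85, a spread within days too wide for a call in any comparison.

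The next list covers the pathway of the laminin-binding sugar of dystroglycan. Some of its genes, GMPPB and DPM3 among them, serve the supply of sugar donors and do not act on dystroglycan itself. Of 15 tested, 0 rose and 8 fell in each comparison with D135, with medians of -0.46 against D105 and -0.47 against D85. Of all loci 35.0% fell against D105 and 39.7% against D85. Under median-of-ratios scaling 1 rose and 0 fell against D105, and 1 rose and 1 fell against D85. POMGNT1 fell to 14.4 ± 0.696 FPKM at D135, against 22.5 ± 0.801 FPKM at D85 (log2 change -0.62, limma adjusted p = 0.00216; -0.17, adjusted p = 0.264, after that scaling). B3GALNT2, POMT2 and GMPPB fell by 0.68, 0.68 and 0.80 against D85, and of these GMPPB passed after that scaling (-0.48, adjusted p = 0.0305). DPM3, the highest of the list by mean, passed in no comparison.

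The enzymes and chaperones that finish type IV collagen and heparan sulfate had the lowest medians of the 4 lists, -0.78 against D105 and -0.79 against D85 at D135. Many of them also act on other collagens or other sugar chains, so the list is not particular to the basement membrane. Of 16 tested, 0 rose and 13 fell against D105, beside 4.47% and 35.0% of all loci, and 0 rose and 14 fell against D85, beside 6.90% and 39.7%. Under median-of-ratios scaling 0 rose and 6 fell in each comparison. LOXL2, which crosslinks type IV collagen, fell to 7.69 ± 1.78 FPKM at D135, against 22.7 ± 2.53 FPKM at D105 and 27.5 ± 2.12 FPKM at D85. Its log2 change against D85 was -1.73 (limma adjusted p = 0.000223) as deposited and -1.30 (adjusted p = 0.000897) after that scaling. HS2ST1, a heparan sulfate sulfotransferase, fell by 1.09 and XYLT1, which starts the sugar chain, by 0.99 against D85, and both passed after scaling. The collagen chaperone SERPINH1, the prolyl hydroxylase subunit P4HB and the lysyl hydroxylase PLOD1 fell by 0.76, 0.85 and 0.79 against D85, but not after median-of-ratios scaling (adjusted p from 0.072 to 0.215).

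**Figure D4:**
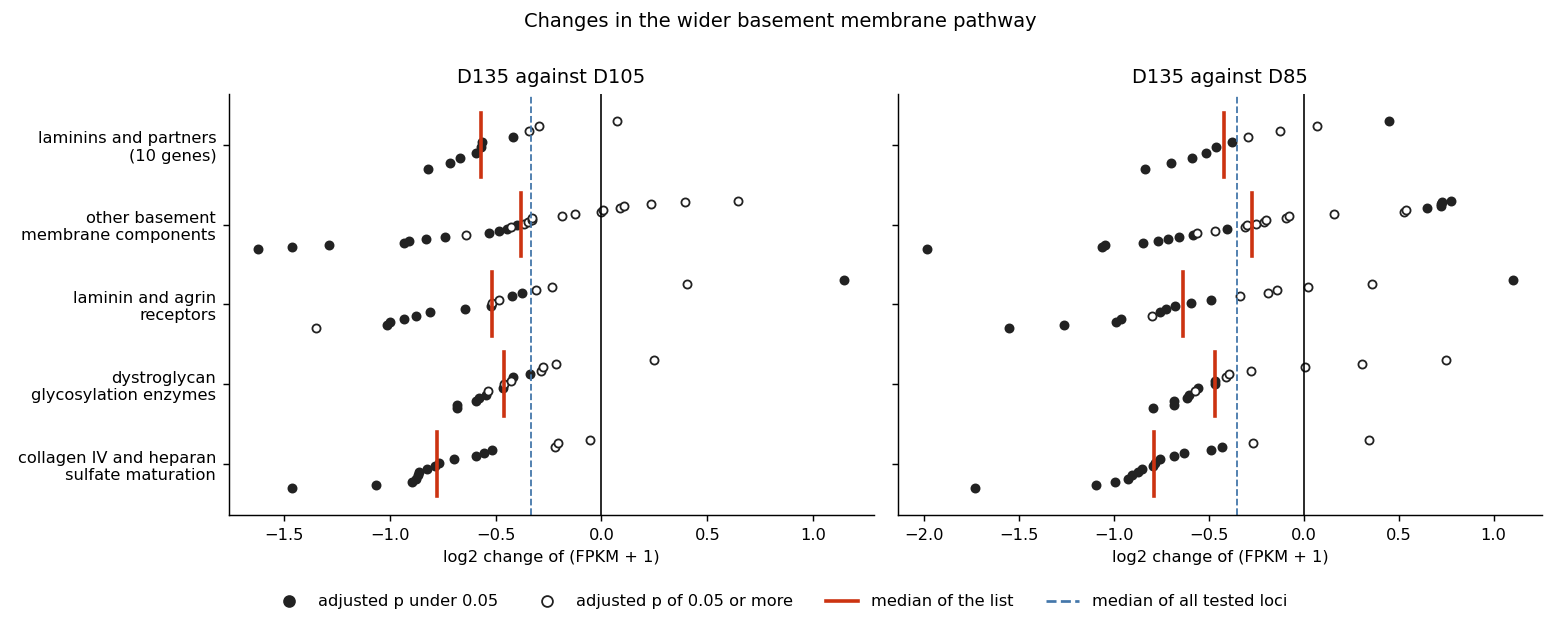
Log2 changes of FPKM + 1 of D135 against each earlier day for every tested gene of the 10 basement membrane genes and of 4 lists of related genes, with the median of each list and the median of all loci as lines. The list for collagen IV and heparan sulfate maturation lies lowest, with medians of -0.78 and -0.79 where all loci have -0.33 and -0.35.

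No marker of the other cells in muscle was at 0 in every library, although several averaged under 1 FPKM, among them PTPRC, LCP1, AIF1, SCX, ACAN and COMP. Endothelial markers (10 of 11 matched) summed to 190 to 240 FPKM at D135, 264 to 276 FPKM at D105 and 171 to 203 FPKM at D85. PECAM1 and KDR were the highest of these markers, whose cells also make LAMA4, LAMA5, LAMC1 and HSPG2. Of the 10, 0 rose and 2 fell for D135 against D105 (KDR and TIE1, the second named after its values were seen), and 4 rose and 0 fell for D135 against D85. Under median-of-ratios scaling the counts were 0 and 0 against D105, and 8 and 0 against D85. Pericyte and smooth muscle markers, ACTA2 and TAGLN the highest, summed to 168 to 194 FPKM at D135, 185 to 262 FPKM at D105 and 218 to 237 FPKM at D85. Fibroblast markers, with COL3A1 and COL1A2 the highest, summed to 1445 to 3326 FPKM at D135, 2528 to 6802 FPKM at D105 and 2063 to 3234 FPKM at D85. Fibre markers MYLPF and ACTA1 were the highest of all, and ACTA1 rose by 2.26 on the log2 scale for D135 against D85 (adjusted p = 0.000714).

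Tendon and cartilage markers, led by FMOD and TNMD, summed to 2.58 to 114 FPKM at D135, 11.0 to 323 FPKM at D105 and 16.3 to 55.2 FPKM at D85. Adipocyte markers, led by LPL and FABP4, summed to 13.8 to 71.9 FPKM at D135, 5.44 to 114 FPKM at D105 and 1.87 to 15.7 FPKM at D85. Leukocyte markers, led by CSF1R and CD68, summed to 12.2 to 14.7 FPKM at D135, 14.3 to 24.0 FPKM at D105 and 13.2 to 22.6 FPKM at D85, and of the epidermal markers TP63, KRT5 and EPCAM, KRT5 and EPCAM averaged under 1 FPKM. The endothelial sum at D135 was below that of every D105 library, as were the levels of 8 of the 10 basement membrane genes and of 47.7% of all loci. HSPG2 and LAMB2 overlapped D105. Of the 10 endothelial markers, 3 had D135 libraries below all D105 libraries. Against D85 the endothelial sum overlapped, with 5 of the 10 markers above every D85 library and 1 below. Of the 10 basement membrane genes, 6 lay below every D85 library and 1 above, beside 48.8% and 9.42% of all loci. The part of these cells in those levels was not tested.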

How the data were processed

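RNA of 9 longissimus dorsi libraries, 3 for each of 3 fetal days, had been sequenced, and values were analysed from the deposited table of gene loci. Its values are FPKM, per the file headers. The tools named in the submitters' processing notes are TopHat2, Bowtie2 and cutadapt. Neither a genome build, nor the assembler behind locus names such as MSTRG.4699, nor the program that computed FPKM is given in those sources. The labels name 2 library kits and 2 sequencer models, and do not tie a sequencer to a library. Whether the sequencer differed between days is therefore not known, and its part in the shift at D135 was not tested. The table holds no read counts, and the depth is not known as a number of reads. From the steps between low FPKM values, depth relative to the first D85 library was 0.993 to 1.20, highest at D135. Total FPKM per library was 395797 to 489270. The number of unused sample columns was 0.

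Log2(FPKM + 1) of the 13086 loci with at least 1 FPKM in at least 3 libraries was fitted in limma 3.58.1 (R 4.3.3), with all 9 libraries in a single model, an intensity trend and Benjamini-Hochberg adjustment over all loci. The fit was tested on simulated data. The members and the lists were chosen with earlier results of these data known. The genes named were all 10 members, from each pathway list the 3 largest called changes in each direction and comparison and the 2 of highest mean, from each cell type list the 2 of highest mean, and the 3 loci nearest to each member. A few results that this rule or the lists would give are not reported here. Of 151 listed genes, 147 were found, 4 of them under an older symbol. Alternatives covered pseudocount, filter, scaling, variance model, library weights, the replicate block and leaving out each library.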

Additional observations from a re-analysis of the deposited data

How the results depend on the processing

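Among the alternatives, median-of-ratios scaling moved the counts of the 10 genes called most: 2 in place of 7 for D135 against D105, 3 in place of 7 for D135 against D85, and 1 in place of 7 over the 3 days. Quantile normalization gave 4 for D135 against D105. The cause of these differences was not tested. No share of all loci is set beside the quantile count or the scaled count over the 3 days. Leaving out each library in turn gave counts of 0 to 0 for D105 against D85 and of 5 to 7 for each of the other tests, and LAMB2 to LAMB1 ratio differences of 0.839 to 0.960 (D135 minus D85) and 0.484 to 0.755 (D135 minus D105). The falls of LAMA4, LAMA5, NID2 and AGRN passed in every such fit in both comparisons with D135. For D135 against D105, LAMB1 was lost without the 1st or 3rd D105 library (limma adjusted p of 0.0719 and 0.0714) or the 2nd or 3rd D135 library (0.0529 and 0.0708). LAMC1 was lost whichever D105 library was left out (0.106, 0.0517 and 0.0728), and without the 2nd or 3rd D135 library (0.109 and 0.0828), and NID1 was gained without the 2nd D105 library (0.0364). For D135 against D85, LAMA2 was lost whichever D85 or D135 library was left out (0.0525 to 0.0690), LAMB2 without the 1st or 3rd D85 library (0.0590 and 0.0651) or the 1st D135 library (0.0695), and LAMC1 was gained without that library (0.0365). Signs turned under median-of-ratios scaling for LAMC1 (0.023), NID1 (0.14) and HSPG2 (0.091) against D105, and for LAMA2 (0.075), LAMC1 (0.17) and NID1 (0.34) against D85. With 1 library left out, the LAMB1 change for D105 against D85 ranged from -0.30 to 0.054, positive without the 2nd D105 library, and the HSPG2 change for D135 against D85 from -0.088 to 0.23, negative without the 3rd D85 or the 3rd D135 library (-0.054). Same-numbered libraries of different days showed no visible likeness, as their deviations correlated at -0.0659 to 0.0605 and 3 of 9 libraries lay closest to their own number. Whether they shared a preparation step was not tested. With the replicate block, 0 genes were called at D105 against D85, 6 at D135 against D105, where LAMC1 was lost (adjusted p = 0.0640), 7 at D135 against D85 and 6 over the 3 days. Summing loci or keeping loci with a single name changed nothing, since each gene had 1 locus with 1 name. Over all loci, median-of-ratios scaling called 2301 for D135 against D105 in place of 5164, and 3615 for D135 against D85 in place of 6097. Read depth is not known for these FPKM, so no counting error can be set beside the low values of LAMA5 and AGRN.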
